A study of Mus musculus with 8 samples.

Results

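Glypicans and syndecans are the proteoglycans that carry heparan sulfate on the cell surface, and their transcripts were examined in primary mouse astrocytes of both RGC-32 genotypes, with and without TGF-β. The genes were taken by name from the deposited count table, where they stand as GPC1, GPC2, GPC3, GPC4, GPC6, SDC1, SDC2, SDC3 and SDC4. All 9 were present among 13937 genes, and all 9 passed the filter on low counts that left 13509 genes to be tested. The 5 glypicans and 4 syndecans together took between 0.212% and 0.260% of the counts in a library.

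The cells were prepared from brains of C57BL/6 pups at postnatal day 1, either wild type (WT) or RGC-32 KO, called knockout below, the latter being mice with a knockout of Rgcc, the gene of RGC-32. They were grown in serum-containing medium for 2 weeks and shaken to remove oligodendrocyte precursors and neurons, and all cultures of both genotypes were serum-starved overnight. TGF-β was then given at 10 ng/ml for 24 h, or left out in the control groups. Each of the 4 groups (control and TGF-β of each genotype) holds 2 libraries labelled as biological replicates, and whether a replicate was 1 litter or 1 culture is not given in the sources used here, so p-values measure the spread between these samples only.

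Glypicans are bound to the outer leaflet of the membrane by a lipid anchor, while syndecans span the membrane and end in a short cytoplasmic tail that binds signalling and scaffold proteins. Both carry heparan sulfate, a long sulfated sugar chain that binds growth factors, morphogens and matrix proteins and so shapes how cells receive FGF, Wnt, Hedgehog and BMP signals. In the brain, glypican-4 and glypican-6 are known as proteins that astrocytes release and that promote the formation of excitatory synapses, and syndecan-4 is known from focal adhesions.

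TGF-β moved transcripts of some of these core proteins in opposite directions. Gpc1 and Sdc3 rose and Gpc3 fell in both genotypes, Gpc6 passed the threshold in knockout astrocytes, and Sdc4, the most abundant transcript of the group in control cells, did not pass the test. None of the 9 genes differed between genotypes past the threshold.

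The bases before the start of Sdc3, which rose, and Gpc3, which fell, are printed to show the promoters of called genes that moved in opposite directions. They are the 250 bases upstream of the RefSeq start (assembly GRCm38.p6, the same build as mm10), and RefSeq promoters were matched for 6 of the 9 genes, Gpc2, Gpc3, Gpc4, Sdc1, Sdc3 and Sdc4. Capitals mark the SMAD box CAGAC or its complement GTCTG. The window of Sdc3 lies at chr4:130792287-130792536, plus strand, and that of Gpc3 at chrX:52613975-52614224, minus strand.
Sdc3: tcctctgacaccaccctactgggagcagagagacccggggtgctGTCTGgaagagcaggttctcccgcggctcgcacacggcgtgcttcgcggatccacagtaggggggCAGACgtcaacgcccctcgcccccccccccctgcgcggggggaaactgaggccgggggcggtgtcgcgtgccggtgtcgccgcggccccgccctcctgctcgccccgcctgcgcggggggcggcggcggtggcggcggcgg
Gpc3: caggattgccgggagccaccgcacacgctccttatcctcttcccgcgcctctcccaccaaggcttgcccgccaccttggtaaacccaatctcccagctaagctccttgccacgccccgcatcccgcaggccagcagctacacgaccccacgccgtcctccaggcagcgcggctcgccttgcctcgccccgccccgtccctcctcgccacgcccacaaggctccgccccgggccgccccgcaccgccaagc

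The windows of these 6 genes were searched on both strands for the SMAD box CAGAC, the GC-rich SMAD site GGCGCC, the AP-1 site TGANTCA, the TEAD site GGAATG and the E-box CACGTG, and no match of one motif overlapped that of another. The window of Sdc3 held 2 SMAD boxes, at -206 and -141 from the start, that of Sdc1 held 1, at -215, and that of Gpc4 held 1 GGCGCC at -94 and 1 GGAATG at -131. None of the 5 motifs was found in the windows of Gpc2, Gpc3 and Sdc4. Among 32851 promoter windows of the same length, 42.2% held a SMAD box, 9.59% GGCGCC, 6.75% the AP-1 site, 12.6% GGAATG and 6.02% the E-box. The window of Sdc3 was 76.4% and that of Gpc3 71.6% G or C, against a median of 52.4% over all windows. A match is a description of the letters only, and no binding was measured.

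Library totals ran from 14920561 to 18956038 counts. Counts of the 9 genes ran from 207 for Gpc2 to 9517 for Sdc4, for which counting alone gives a coefficient of variation of 6.95% and 1.03%. Replicates of a group spread more widely than counting alone allows (chi-square over its degrees of freedom 6.26 to 10.4). Rgcc, the targeted gene, had 80 and 94 counts in WT control, 215 and 362 in WT TGF-β, 61 and 28 in knockout control and 64 and 26 in knockout TGF-β. The knockout libraries thus still held Rgcc reads, below the WT libraries in each condition, and the first control library at a level not far under WT control. Values per library are given below as CPM, the count of a gene scaled to library size by TMM normalization, and each pair of values is in the order replicate 1 and replicate 2.

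The cell type on the label was checked against marker genes. The summed CPM of 10 astrocyte markers, Gfap and Aqp4 among them, lay between 4620 and 4847 in WT control and between 3585 and 3705 in WT TGF-β, and between 5342 and 6005 in knockout control and between 4384 and 4716 in knockout TGF-β. In each genotype 2 of these 10 genes fell past the threshold and none rose. According to the paper the meninges were taken off before culture, and nearly all isolated cells expressed GFAP. Markers of meningeal fibroblasts were also present, 11 of 11 in the table and 10 tested, with a summed CPM of 5679 to 7115 in WT control, 10238 to 11678 in WT TGF-β, 4787 to 4931 in knockout control and 8011 to 8050 in knockout TGF-β. These sums are not per length and run over different genes, so they do not compare the amounts of cell types. Of these 10, 3 rose in each genotype, while 2 fell in WT and 0 in knockout cells, a difference that was not tested. Col1a1, a fibrillar collagen that TGF-β induces in many cells, was among those that rose (WT log2 fold change 1.31), while Dcn (-0.62) and Ogn (-0.85), small leucine-rich proteoglycans of connective tissue, were those that fell. For markers of other cells the sums were 1201 to 1630 CPM over the libraries for microglia or macrophages (12 genes), 286 to 402 for neurons (7), 71.1 to 132 for endothelial cells (6) and 254 to 483 for ependymal cells (9). Of the 12 microglial markers, 1 rose in each genotype and 0 fell. In WT it was Tmem119 (log2 fold change 0.99). Over both genotypes the neuronal sum was higher with TGF-β (359 to 402 against 286 to 344 CPM). Most of that difference was in Map2 (WT log2 fold change 0.45, not past the threshold). Of the 6 neuronal markers tested, 1 rose in each genotype and 1 fell in knockout cells. The endothelial (71.1 to 84.4 against 104 to 132 CPM) and ependymal (254 to 316 against 400 to 483 CPM) sums were lower with TGF-β. Of the 6 endothelial markers, 1 rose (Flt1) and 1 fell (Cdh5) in WT, and 1 rose and 2 fell in knockout cells. Of the 9 ependymal markers, 6 fell in WT and 4 in knockout cells. The sum of 8 oligodendrocyte lineage markers was higher with TGF-β, at 461 to 545 CPM against 229 to 266 in WT and 374 to 491 against 221 to 262 in knockout cells, with most of the difference in Cspg4 (WT log2 fold change 3.13), the NG2 proteoglycan, with 1 of the 8 up and 1 down in WT and 2 up and 1 down in knockout cells. In bulk RNA, fewer cells of a type and less RNA per cell cannot be told apart, and the part of these cells in the results below was not tested.

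**Figure D1:**
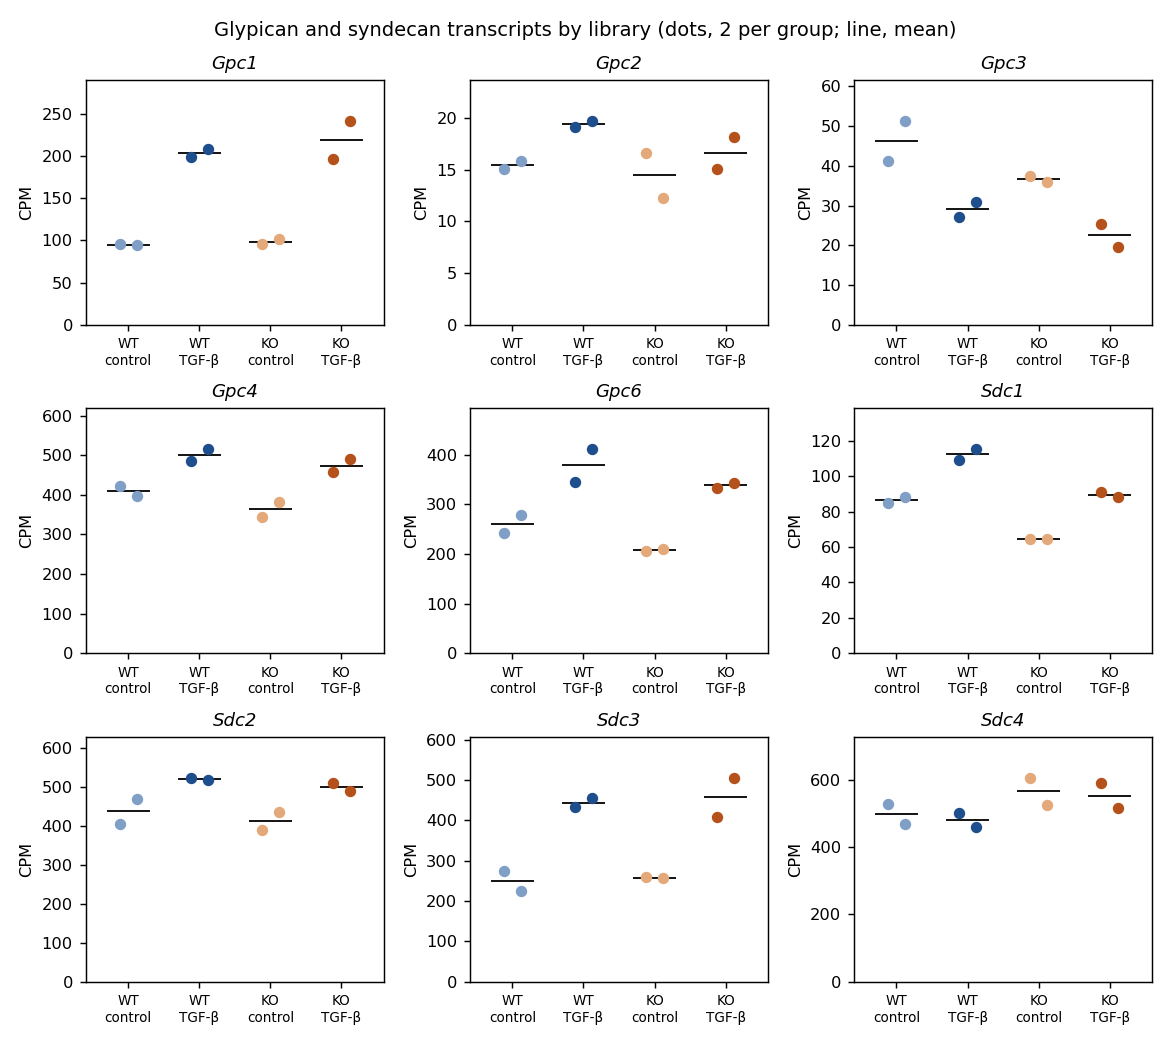
CPM (TMM-scaled, linear axes from 0) of the 9 genes in each of the 8 libraries, with 2 dots per group and a line at their mean. The TGF-β libraries stand above the controls for Gpc1 and Sdc3 and below them for Gpc3 in both genotypes, and the groups of Sdc4 overlap between control and TGF-β.

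Gpc1 (mm10 chr1:92831645-92860779, plus strand), a glypican of brain and muscle that binds FGF2, had the largest response of the 9 genes. Its level was 95.5 and 94.8 CPM in WT control and 199 and 209 CPM in WT TGF-β. In knockout cells it was 95.3 and 101 CPM in control and 197 and 242 CPM with TGF-β. Every TGF-β library stood above both controls of its genotype. For WT the log2 fold change was 1.10 (SE 0.0959, adjusted p = 0.000282 by edgeR's quasi-likelihood test), a 2.14-fold rise, and 1.16 in knockout (SE 0.0960, adjusted p = 0.000282), a 2.23-fold rise. In the annotation 977 of its 5159 exonic bases (18.9%) also lie in Ankmy1 on the opposite strand, and unstranded reads there cannot be told apart. Ankmy1 was not among the genes tested here and lay between 0.0416 and 0.108 FPKM.

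Gpc3 (mm10 chrX:52272426-52613950, minus strand), a glypican that restrains Hedgehog signalling and is lost in a human overgrowth syndrome, went the other way. It was at 41.3 and 51.4 CPM in WT control against 27.1 and 30.9 CPM in WT TGF-β. In knockout cells it was at 37.4 and 36.0 CPM against 25.3 and 19.6 CPM. Both TGF-β libraries of each genotype lay below both of its controls. For WT the log2 fold change was -0.68 (SE 0.140, adjusted p = 0.00878, edgeR) and -0.71 in knockout (SE 0.146, adjusted p = 0.0102, edgeR). The call is close to the fold limit of 0.6: without WT control replicate 2 the WT value was -0.51 (adjusted p = 0.0489, edgeR), without WT TGF-β replicate 1 it was -0.58 (adjusted p = 0.0511, edgeR), and without knockout TGF-β replicate 2 the knockout value was -0.55 (adjusted p = 0.0595, edgeR), none of them past the threshold. Among the fibroblast markers described above, Dcn and Ogn fell beside it in WT, while Col1a1 (1.31), Col1a2 (1.08) and Crabp2 (2.35) rose there, the summed level of the list was higher with TGF-β, and none of the list fell past the threshold in knockout cells, where Gpc3 did. The part of these cells in the fall of Gpc3 was not tested.

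Gpc6 (mm10 chr14:116925315-117976544, plus strand) had 242 and 278 CPM in WT control and 346 and 412 CPM in WT TGF-β. In knockout cells it had 206 and 211 CPM in control and 333 and 343 CPM with TGF-β. The TGF-β libraries lay above the controls in both genotypes. For WT the log2 fold change of 0.54 (SE 0.0966, adjusted p = 0.00480, edgeR) stayed under the fold limit, and that of 0.70 in knockout (SE 0.0971, adjusted p = 0.00212, edgeR) was past it. The difference between these responses was 0.15 with a 95% interval of -0.16 to 0.47 and did not pass the test. The WT value passed the limit without WT control replicate 2 (0.64) or without WT TGF-β replicate 1 (0.66), and the knockout value fell short of it on log2(FPKM + 1) (0.53) and log2(FPKM + 0.1) (0.54).

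Gpc4 (mm10 chrX:52053021-52165252, minus strand), which lies 107 kb from Gpc3 on the same strand of the X chromosome, was the most abundant glypican. It was at 421 and 396 CPM in WT control and 485 and 515 CPM in WT TGF-β, and at 343 and 382 CPM in knockout control and 456 and 489.8 CPM in knockout TGF-β. The TGF-β libraries were the higher in both genotypes, by a small amount. For WT its log2 fold change was 0.29 (adjusted p = 0.0249, edgeR) and 0.38 in knockout (adjusted p = 0.0101, edgeR), under the fold limit in each. The neighbours Gpc3 and Gpc4 thus had fold changes of opposite sign in each genotype.

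Gpc2 (mm10 chr5:138273655-138280005, minus strand), known from developing neurons, was the least abundant, at 15.1 and 15.9 CPM in WT control, 19.2 and 19.8 CPM in WT TGF-β, 16.7 and 12.3 CPM in knockout control and 15.1 and 18.2 CPM in knockout TGF-β. Its groups overlapped in knockout cells. Neither log2 fold change passed the test (0.33, 95% interval -0.019 to 0.68, in WT and 0.20, -0.15 to 0.56, in knockout). Its value is uncertain for a further reason: 2376 of its 4274 exonic bases (55.6%) are shared in the annotation with Gm43720, a gene on the same strand that was not analysed here.

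Among the syndecans, Sdc3 (mm10 chr4:130792537-130826319, plus strand), a syndecan of the nervous system with a long ectodomain, rose. It was at 275 and 226 CPM in WT control and 434 and 454 CPM in WT TGF-β. In knockout cells it was at 259 and 258 CPM in control and 408 and 506 CPM with TGF-β. The groups did not overlap in either genotype. For WT the log2 fold change was 0.83 (SE 0.121, adjusted p = 0.00211, edgeR) and 0.82 in knockout (SE 0.121, adjusted p = 0.00254, edgeR), a 1.77-fold and a 1.77-fold rise. Antisense genes share 6.93% (Gm26716) and 0.801% (Gm12970) of its exonic bases, and unstranded reads of these stretches cannot be told apart.

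Sdc1 (mm10 chr12:8771323-8793715, plus strand), a syndecan best known from epithelia and plasma cells, was at 85.1 and 88.4 CPM in WT control and 109 and 115 CPM in WT TGF-β. In knockout cells it was at 64.6 and 64.6 CPM in control and 91.0 and 88.1 CPM with TGF-β. The replicates lay close together, and control and TGF-β did not overlap within either genotype. For WT its log2 fold change of 0.37 (SE 0.0545, adjusted p = 0.00212, edgeR) and 0.47 in knockout (SE 0.0556, adjusted p = 0.00106, edgeR) passed the adjusted p but not the fold limit.

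Sdc2 (mm10 chr15:32920723-33034935, plus strand), a syndecan of mesenchymal cells, was at 405 and 468 CPM in WT control, 523 and 518 CPM in WT TGF-β, 388 and 435 CPM in knockout control and 508 and 489 CPM in knockout TGF-β. The TGF-β libraries were the higher in both genotypes, but neither log2 fold change passed the test (0.25 with adjusted p = 0.0589 and 0.28 with adjusted p = 0.0507, edgeR). Sdc4 (mm10 chr2:164424247-164443887, minus strand), the syndecan of focal adhesions, was at 529.9 and 469.8 CPM in WT control, 503 and 460.2 CPM in WT TGF-β, 607 and 526 CPM in knockout control and 589.8 and 516 CPM in knockout TGF-β. Its control and TGF-β libraries overlapped in CPM in both genotypes. The log2 fold changes of -0.054 (WT) and -0.035 (knockout) came with 95% intervals of -0.30 to 0.19 and -0.28 to 0.21, which leave out a change of the size of the fold limit. In FPKM the libraries did not overlap, at 198 and 177 in WT control against 161 and 158 in WT TGF-β, and at 233 and 205 against 204 and 179.8 in knockout cells. The log2 fold changes on log2(FPKM + 1) were -0.23 in WT (adjusted p = 0.0859, limma) and -0.19 in knockout (adjusted p = 0.138, limma), so the size of the Sdc4 response depends on the measure.

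**Figure D2:**
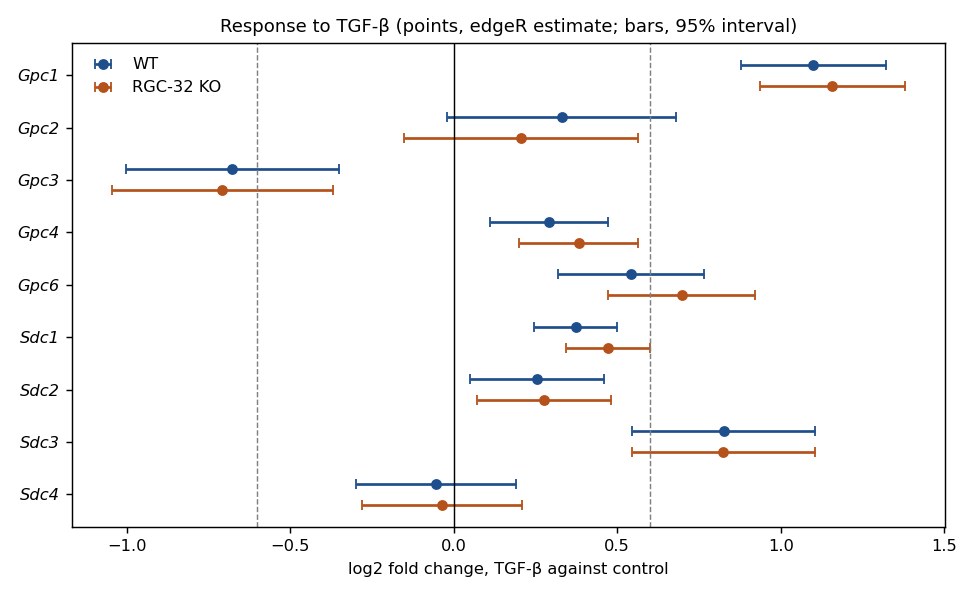
Log2 fold change of TGF-β against control for the 9 genes in WT and knockout astrocytes, with bars for the 95% interval of edgeR's quasi-likelihood fit and dashed lines at the fold limits of -0.6 and 0.6. The estimates of both genotypes lie close together for every gene, from 1.10 and 1.16 for Gpc1 to -0.68 and -0.71 for Gpc3.

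To be past the threshold a gene needed a log2 fold change of 0.6 or more in size with an adjusted p under 0.05. In WT, 2 of the 9 genes rose, beside 7.72% of all genes tested, and 1 of 9 fell, beside 5.65%. In knockout astrocytes 3 of 9 rose, beside 6.61%, and 1 of 9 fell, beside 4.93%. At an adjusted p under 0.05 with no fold limit, 5 rose and 1 fell in WT, beside 18.6% and 14.3% of all genes, and 5 rose and 1 fell in knockout, beside 16.6% and 11.8%. The median log2 fold change over the 9 genes was 0.33 in WT and 0.38 in knockout, against medians of -0.00479 and 0.00311 over all genes tested. Over all genes the calls split into 1043 up and 763 down in WT and 893 up and 666 down in knockout, and with upper quartile normalization into 857 up and 1055 down and 747 up and 895 down, under which the 9 genes still gave 3 calls in WT and 4 in knockout. On log2(FPKM + 1) the split was 514 up and 589 down in WT and 457 up and 577 down in knockout. That measure, which has no TMM scaling, shifted the median gene by -0.12 in WT and -0.13 in knockout against the counts on the log2 scale, and all 9 genes came out lower than from the counts, by -0.18 to -0.073 in WT and -0.18 to -0.082 in knockout.

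Levels of different genes were compared per length, as the deposited FPKM (fragments per length of transcript and per library size). In WT control the order was Sdc4 (187 ± 14.6, SD, n = 2), Gpc4 (148 ± 8.65), Sdc2 (127 ± 13.7), Sdc3 (47.5 ± 4.42), Gpc6 (36.9 ± 4.30), Sdc1 (25.4 ± 0.160), Gpc1 (23.3 ± 1.08), Gpc3 (20.3 ± 2.47) and Gpc2 (3.14 ± 0.145 FPKM). No neighbours in that order overlapped between their libraries, though the lowest Gpc1 value of 22.6 FPKM was only just above the highest Gpc3 value of 22.0 FPKM. With TGF-β the first places in WT changed, Gpc4 reaching 168 ± 2.32 FPKM and Sdc4 159.8 ± 2.28 FPKM, while in knockout Sdc4 stayed first in both conditions, at 219 ± 19.7 and 192 ± 17.1 FPKM. Gpc1 went from the seventh place in WT control to the sixth with TGF-β (45.1 ± 2.26 FPKM) and from the sixth to the fifth in knockout (49.8 ± 3.45 FPKM). The only neighbours whose libraries overlapped in any group were Gpc4 and Sdc2 in knockout control.

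The makeup of each family shifted with TGF-β in both genotypes. Gpc4 made up most of the summed glypican FPKM, 63.8% ± 3.56 (SD, n = 2) in WT control and 60.7% ± 0.150 in WT TGF-β. The share of Gpc1 was 10.1% ± 0.494 in WT control and 16.3% ± 0.999 in WT TGF-β, and went from 11.6% ± 0.132 to 18.8% ± 0.767 in knockout cells, while that of Gpc3 was 8.78% ± 1.09 and 3.95% ± 0.213 in WT, and 7.61% ± 1.02 and 3.33% ± 0.518 in knockout cells, in the same order. Gpc1 thus took a larger part than Gpc3 in each group, by a wider margin with TGF-β. Among the syndecans the share of Sdc3 was 12.3% ± 0.977 in WT control and 18.6% ± 0.113 in WT TGF-β, and went from 12.1% ± 0.382 to 18.1% ± 2.19 in knockout cells. The share of Sdc4 was 48.4% ± 3.13 and 39.5% ± 0.481 in WT, and 53.6% ± 3.74 and 44.6% ± 2.58 in knockout cells, in the same order. The summed glypican level was 231 ± 0.663 FPKM in WT control and 277 ± 3.13 FPKM in WT TGF-β, and the summed syndecan level was 387 ± 5.14 and 405 ± 10.7 FPKM. A share within a family does not depend on the scaling between libraries, and these shares are descriptions with no test.

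**Figure D3:**
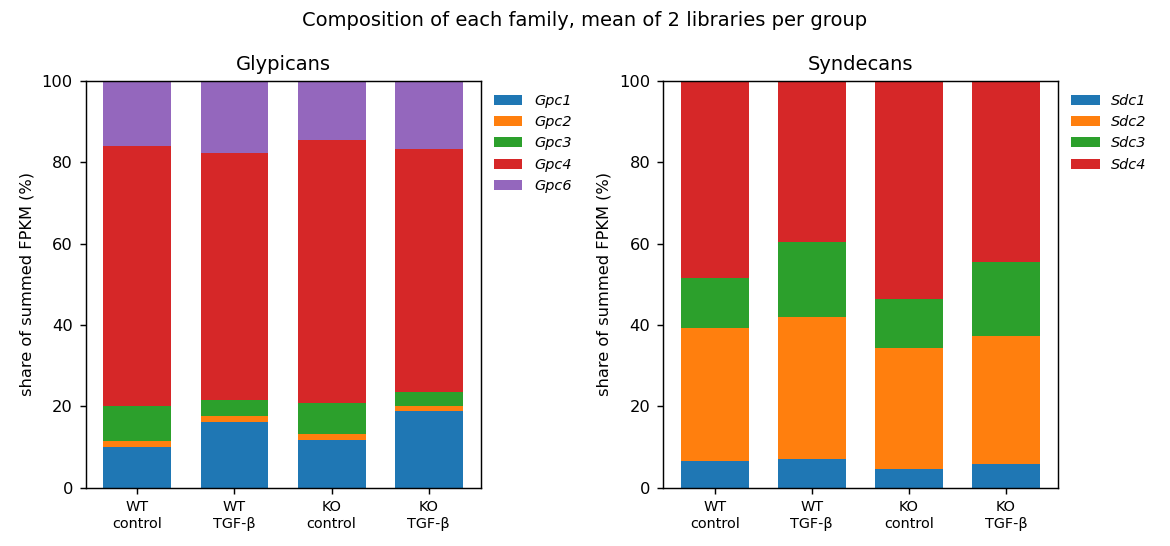
Share of each gene in the summed FPKM of its family (percent, linear axis from 0 to 100), as stacked means of 2 libraries in each group. The segments of Gpc1 and Sdc3 are wider and those of Gpc3 and Sdc4 narrower with TGF-β in both genotypes.

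The comparison of knockout with WT asks whether RGC-32 sets the level of these genes. None of the 9 passed the threshold without TGF-β, where 0.037% of all genes tested did, and none with it, where 0.0444% did. By DESeq2, also with 0 of the 9 past both limits, 13 of 10628 genes passed without TGF-β and 34 of 11937 with it. At an unadjusted p under 0.05, 3 of the 9 were lower in knockout controls (Gpc3, Gpc6 and Sdc1), beside 3.8% of all genes, and 2 were lower with TGF-β (Gpc3 and Sdc1), beside 7.03%. For Gpc3, Gpc6 and Sdc1 both knockout libraries lay below both WT libraries in each condition, as they did for 7.51% of all genes.

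Sdc1 had the smallest p of the 9. Its CPM of 64.6 and 64.6 in knockout control stood under 85.1 and 88.4 in WT control, and 91.0 and 88.1 in knockout TGF-β under 109 and 115 in WT TGF-β. The log2 difference, knockout against WT, was -0.43 without TGF-β (95% interval -0.55 to -0.30, adjusted p = 0.127, edgeR) and -0.33 with it (-0.45 to -0.20, adjusted p = 0.107, edgeR). Both intervals lie below 0 and above -0.6. With DESeq2 the adjusted p was 0.0410 without TGF-β and 0.130 with it. Over 19 alternatives it ran from 0.0410 to 0.577 and from 0.0412 to 0.718. Those 19 leave out the Bonferroni correction, glmTreat and the dropped fold limit, unlike the range given for Hspg2 below. The difference was -0.34 (-0.66 to -0.018) without and -0.37 (-0.71 to -0.027) with TGF-β for Gpc3, and -0.32 (-0.54 to -0.094) and -0.16 (-0.39 to 0.059) for Gpc6. Gpc6 lies on chromosome 14 as Rgcc does, 37.6 Mb away. The fibroblast marker sum, given above, was also lower in both knockout groups than in WT, and the astrocyte marker sum higher. With TGF-β its largest member, Col1a1, was at 3807 and 4627 CPM in WT and 2767 and 3018 CPM in knockout. Col1a2, Col3a1 and Lum were also lower there, while Dcn, Ogn, Islr, Foxc1, Igf2 and Crabp2 overlapped between genotypes. Without TGF-β, Col1a1, Col1a2, Lum, Igf2, Dcn, Ogn, Islr and Foxc1 were lower in knockout cells, while Col3a1 and Crabp2 overlapped between genotypes. The part of these cell types in the differences of Sdc1, Gpc3 and Gpc6 was not tested.

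**Figure D4:**
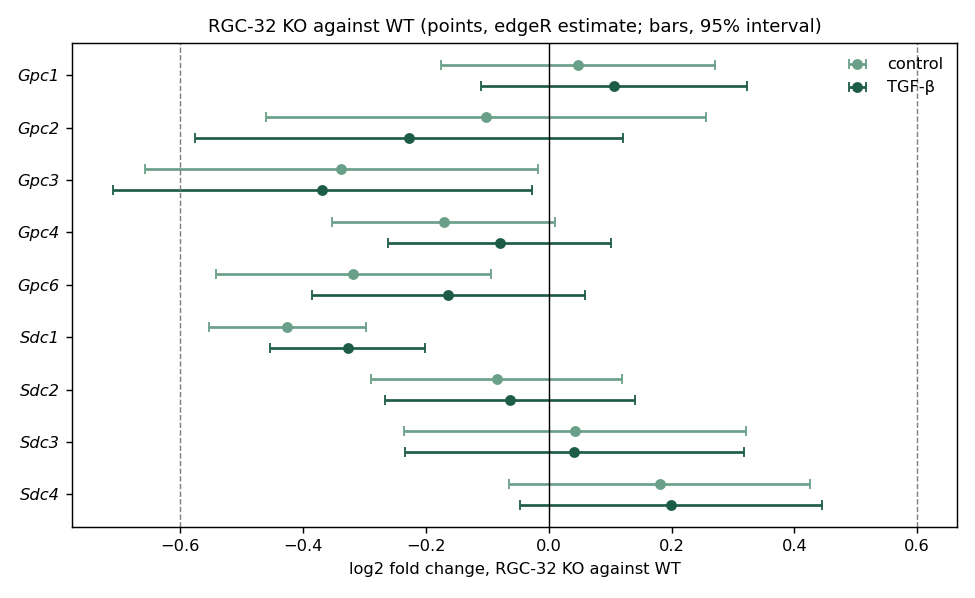
Log2 fold change of knockout against WT for the 9 genes, without and with TGF-β, with bars for the 95% interval of edgeR's fit and dashed lines at -0.6 and 0.6. The estimates lie between -0.43 and 0.20, and the bars of Sdc1 and Gpc3 stay below 0 in both conditions.

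For Gpc1 the difference was 0.048 (-0.17 to 0.27) without and 0.11 (-0.11 to 0.32) with TGF-β, and for Sdc3 0.043 (-0.24 to 0.32) and 0.042 (-0.23 to 0.32), so that for these genes a genotype difference of the size of the fold limit lay outside the interval. Sdc4 was higher in knockout by 0.18 (-0.065 to 0.43) and 0.20 (-0.046 to 0.44), neither past the test.

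Whether RGC-32 alters the response to TGF-β was examined through an interaction term. None of the 9 passed by edgeR, as for 0% of all genes tested, and none of them had an unadjusted p under 0.05, beside 2.82% of all genes (381 genes, and 75 genes by DESeq2, which also made no call). The difference of the responses, knockout minus WT on the log2 scale, ranged over the 9 genes from -0.12 for Gpc2 to 0.15 for Gpc6. It was 0.059 (-0.25 to 0.37) for Gpc1, -0.031 (-0.50 to 0.44) for Gpc3 and -0.000880 (-0.39 to 0.39) for Sdc3. For Gpc1 and Sdc3 these intervals leave out a difference of the size of the fold limit, and for Gpc2 (-0.62 to 0.38) they do not.

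The genes whose pattern over the 8 libraries was most like that of a called gene were found by the root mean square difference of log2 CPM, each gene centred on its own mean. For Gpc1 these were Nedd9 (0.0545), an adhesion scaffold protein, Prnp (0.0758), the prion protein, and Garem2 (0.0780), and 164 genes lay within 0.2. For Sdc3 they were Polr3d (0.0502), a subunit of RNA polymerase III, Iqgap2 (0.0586) and Lrrc8a (0.0619), a volume-regulated anion channel subunit, with 513 genes within 0.2. For Gpc3 they were 2900052L18Rik (0.0858), Prdm6 (0.0919) and Sema3a (0.104), a repulsive guidance cue, with 78 within 0.2. For Gpc6 they were Tgfb1i1 (0.0507), a focal adhesion protein named for its induction by TGF-β1, Itgb1 (0.0599), the integrin β1 chain, and Gli2 (0.0643), a transcription factor of Hedgehog signalling, with 992 within 0.2. Among the 9 genes themselves Gpc4 and Sdc2 were nearest to each other (0.101), Gpc6 and Sdc1 came next (0.136), Gpc1 and Sdc3 stood at 0.168, and Gpc1 and Gpc3 were farthest apart (0.951).

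Because the 9 genes encode only the protein cores, the enzymes that build, modify and trim heparan sulfate were examined with the intracellular partners of syndecans and the secreted heparan sulfate proteoglycans. Of 50 listed genes, Ndst4, Hs3st2, Hs3st3a1, Hs3st4, Hs3st5, Hpse, Hpse2 and Sdcbp2 were absent from the counts and could not be assessed. The other 42 were all tested. In WT 11 rose and 2 fell, and in knockout 10 rose and 1 fell, with median log2 fold changes of 0.23 and 0.22. The same background shares hold as for the core proteins, 7.72% up and 5.65% down in WT and 6.61% and 4.93% in knockout.

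In the list of chain assembly, 2 of 11 tested genes rose and 1 fell in each genotype. Ext1, a subunit of the polymerase that extends the chain, went from 144 ± 5.56 CPM (SD, n = 2) to 368 ± 27.1 CPM in WT, a log2 fold change of 1.36 (adjusted p = 8.94e-05, edgeR), and one of 1.43 in knockout (adjusted p = 7.69e-05, edgeR). Its partner subunit Ext2 had log2 fold changes of 0.34 and 0.34, under the fold limit. Xylt1, which adds the first sugar of the linker to the core protein, went from 6.81 ± 0.153 to 20.3 ± 1.56 CPM in WT (log2 fold change 1.58, adjusted p = 0.000601, edgeR) and had 1.17 in knockout. Its paralog Xylt2 was at -0.28 and -0.25 and did not pass the test. Extl1, a glycosyltransferase related to Ext1, fell, from 19.0 ± 3.47 to 8.69 ± 1.08 CPM in WT (log2 fold change -1.13) and with a log2 fold change of -1.38 in knockout.

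In the list of chain modification, 3 of 11 tested genes rose and none fell in each genotype by edgeR. They were Glce, the epimerase that turns glucuronic into iduronic acid (log2 fold change 0.79 in WT and 0.69 in knockout), Hs6st1, a 6-O-sulfotransferase (0.68 and 0.79), and Hs3st6, a 3-O-sulfotransferase (1.58 and 1.23). Hs3st6 was near the floor of the table, at 0.621 ± 0.0339 CPM in WT control and 1.87 ± 0.0664 CPM in WT TGF-β, while Hs6st1 went from 123 ± 0.975 to 197 ± 14.7 CPM. The N-deacetylase and N-sulfotransferase Ndst1, at 301 ± 13.7 CPM in WT control, had 0.14 and 0.065 and did not pass the test.

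In the list of editing and release, 2 of 10 rose in each genotype. Mmp14, a membrane-bound matrix metalloproteinase, went from 305 ± 10.2 to 736 ± 31.7 CPM in WT (log2 fold change 1.27, and 1.15 in knockout), and Furin, the protease that cuts glypican precursors among many others, from 120.4 ± 0.738 to 223 ± 1.78 CPM (0.89 and 0.87). Notum, an extracellular lipase that inactivates Wnt proteins and can cleave the glypican anchor, fell in WT (-1.64, adjusted p = 0.0127, edgeR) and was at -1.05 in knockout (adjusted p = 0.0874, edgeR), from only 7.06 ± 1.88 and 4.23 ± 0.789 CPM in the controls. The 6-O-endosulfatases Sulf1 and Sulf2 had WT log2 fold changes of 0.43 and 0.021, under the fold limit.

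Of 7 tested syndecan partners, 2 rose in WT and 1 in knockout. Tiam1, a Rac activator, had 1.13 in WT and 1.07 in knockout, both past the threshold. Prkca, the kinase PKCα that syndecan-4 binds, had 0.71 in WT and 0.56 in knockout, the latter with an adjusted p = 0.00105 (edgeR) but under the fold limit, and the interaction was -0.14 (-0.36 to 0.074). Sdcbp, or syntenin, which binds the syndecan tail, was at -0.20 and -0.17.

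Of the 3 secreted heparan sulfate proteoglycans, 2 rose in each genotype. Hspg2, which encodes perlecan, went from 356 ± 12.1 to 903 ± 20.3 CPM in WT and from 281 ± 31.9 to 524 ± 29.9 CPM in knockout (log2 fold changes 1.35 and 0.90). Agrn, or agrin, had 0.75 and 0.63, and Col18a1 had 0.44 and 0.46, under the fold limit. Between genotypes, 1 of the 42 genes passed the threshold with TGF-β, beside 0.0444% of all genes, and 0 without it, where 0.037% of all genes did. It was Hspg2, with a log2 difference of -0.79, knockout against WT (adjusted p = 0.0451, edgeR). The call held under 8 of 22 alternatives and was lost under 14, among them limma-voom, RLE normalization and the omission of any one library of the TGF-β groups, with adjusted p over the 22 from 1.19e-11 (DESeq2) to 1.00 (glmTreat). Dropping the fold limit, among the 8, could not remove the call. Over the 22 the log2 difference itself ran from -0.85 to -0.73. The paper also reports higher Hspg2 in WT than in knockout astrocytes after TGF-β, by sequencing of these samples and by real-time PCR. The interaction of Hspg2, -0.45 (-0.74 to -0.16), did not pass after adjustment. The fibroblast marker sum moved the same way as Hspg2, up with TGF-β and lower in knockout cells. Its largest members with TGF-β, Col1a1 and Col1a2, did so too, while Dcn (log2 fold change -0.62) and Ogn (-0.85) fell in WT. With TGF-β the libraries of Dcn and Ogn overlapped between genotypes. Without TGF-β both genes were lower in knockout than in WT libraries, as Hspg2 was. The part of fibroblasts in the values of Hspg2 was not tested.

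**Figure D5:**
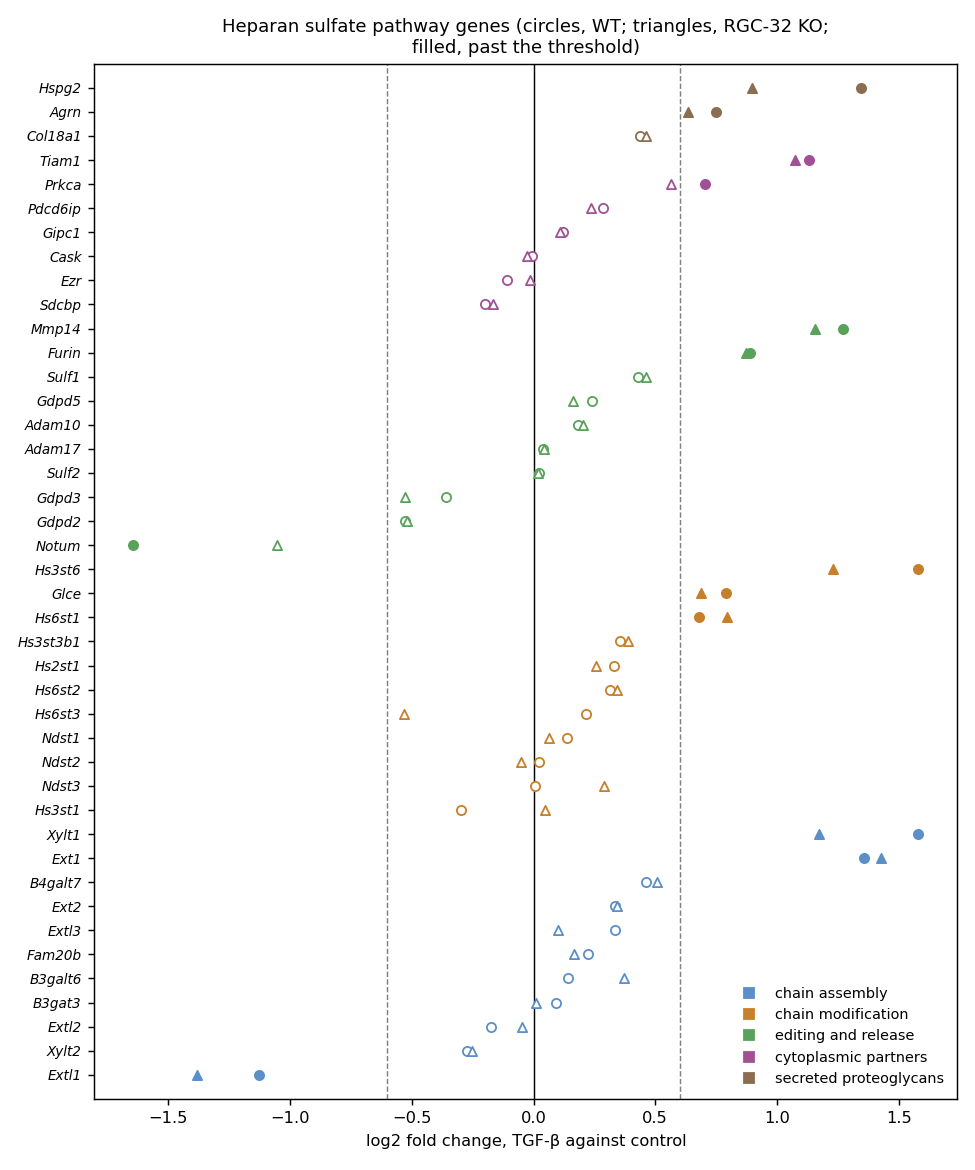
Log2 fold change of TGF-β against control for the 42 tested genes of heparan sulfate chains and their partners, circles for WT and triangles for knockout, filled where past the threshold, coloured by list, with dashed lines at -0.6 and 0.6. Filled symbols to the right include Ext1, Xylt1, Mmp14 and Hspg2, and those to the left are Extl1 and, in WT, Notum.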

How the data were processed

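Libraries were unstranded, prepared from total RNA of 8 samples. According to the submitters' processing notes the authors used STAR, Cufflinks and DESeq with mm10, and the counting program and annotation are not given in the sources used here. The authors deposited raw read counts under gene symbols and a table of FPKM from Cufflinks. The authors' tables of fold changes and p-values were not used. Among the count entries, 21 names had become dates and 1 was repeated, none of them reported here.

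The tests used edgeR 4.0.16 in R 4.3.3, after filterByExpr and TMM scaling, as a single quasi-likelihood fit of the 4 group means over all 8 libraries. P-values are two-sided and adjusted over 13509 genes by the Benjamini-Hochberg method, and intervals are 95%. Log2 CPM used a prior count of 2. Tests on FPKM, with limma 3.58.1, kept genes at 1 or more in at least 2 libraries and added 1 or 0.1. DESeq2 1.42.0 and limma-voom were further alternatives. The procedure was tested on simulated data. Gene positions are from GENCODE M21. Named were all 9 genes, the listed pathway genes past the threshold in a TGF-β comparison with groups that do not overlap, the 3 nearest genes of each of 4 called genes, and Rgcc. Listed pathway genes absent from the counts were named as well. Ext2, Xylt2, Ndst1, Sulf1, Sulf2, Sdcbp and Col18a1 and the marker genes were named after their values were seen. The genes, lists and tests were chosen with earlier results of these data known.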

Additional observations from a re-analysis of the deposited data

How the results depend on the processing

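Over DESeq2, limma-voom, edgeR on 4 libraries, the filters, RLE and upper quartile normalization, the 9 genes gave 3 calls in WT and 4 in knockout throughout, and with FPKM 3 and 3. A Bonferroni correction left 1 and 1, a test against the fold limit (glmTreat) 1 and 1, and dropping the fold limit gave 6 in WT. The heparan sulfate genes, 13 in WT and 11 in knockout, gave 4 and 3 by Bonferroni, 6 and 6 by glmTreat, and 24 and 20 with no fold limit. With the replicate number as a block the 9 genes gave 3 and 4 calls and the pathway 13 and 10, and with the crossed replicate block, added after seeing the data, 3, 4, 13 and 12. The numbers were not taken to pair control with TGF-β samples, since deviations of same-numbered libraries correlated at -0.343 (WT) and -0.348 (knockout) between them. Between genotypes same-numbered libraries did deviate together, at 0.491 without and 0.253 with TGF-β. What these libraries share is not given in the sources used here, and the main fit used no pairing. No genotype or interaction setting gave a call among the 9. Over all genes tested, 1806 calls in WT and 1559 in knockout became 174 and 141 by Bonferroni, 459 and 367 by glmTreat, 4450 and 3835 with no fold limit and 1103 and 1034 on log2(FPKM + 1). Between genotypes, 5 calls without and 6 with TGF-β became 13 and 34 by DESeq2, 10 and 36 with the crossed block, and 0 to 2 and 0 to 6 with 1 library left out.

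Leaving out 1 library at a time, calls among the 9 stayed at 3 in WT, with Gpc6 in place of Gpc3 in the 2 cases given above, and ran from 3 to 4 in knockout, and the pathway calls ran from 11 to 13 and from 8 to 11. A lone sample left in a group is assumed there to vary like the other groups. Log2 values that changed sign ran from -0.14 to 0.035 (Sdc4 in WT), -0.14 to 0.072 (Sdc4 in knockout) and -0.00235 to 0.44 (Gpc2 in knockout). Between genotypes they ran from -0.34 to 0.10 for Gpc2, -0.19 to 0.024 for Sdc2 and -0.094 to 0.19 for Sdc3 without TGF-β, and from -0.059 to 0.25 for Gpc1 and -0.13 to 0.19 for Sdc3 with it. The interaction ran from -0.11 to 0.20 for Gpc1, -0.33 to 0.11 for Gpc2, -0.23 to 0.13 for Gpc3, -0.088 to 0.12 for Sdc2, -0.17 to 0.15 for Sdc3 and -0.082 to 0.13 for Sdc4. On FPKM with 1 or 0.1 added, the difference without TGF-β was 0.029 and 0.033 for Gpc2, and the interaction 0.030 and 0.019 for Gpc3. With upper quartile normalization the interaction of Sdc3 was 7.55e-05. The cause of these shifts was not tested, and none of these values was past the threshold. Gpc2 had the lowest count of the 9 genes in every library.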

Other observations

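Gpc5, the glypican next to Gpc6 on chromosome 14 and absent from the 9 genes taken by name, was read here from the FPKM values and lay between 0.0528 and 0.160 FPKM in the 8 libraries. In WT control it was at 0.132 and 0.131 FPKM and in WT TGF-β at 0.0528 and 0.0565 FPKM, and in knockout cells at 0.160 and 0.132 FPKM in control and 0.0851 and 0.135 FPKM with TGF-β. These levels are lower than that of Gpc2, the lowest of the 9 genes, in every library, and were not tested.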
